A study of Danio rerio with 11 samples.

Results

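The genes hsp90aa1.1 (called hsp90a.1 in older zebrafish usage) and unc45b encode the pair of chaperones that fold the myosin motor of skeletal muscle, and their transcripts were followed here in wild-type and *spt* mutant embryos at an early and a late somite stage. All probe sets on the Affymetrix Zebrafish Genome Array that carry the symbol hsp90aa1.1 or unc45b alone were taken. This gave 2 probe sets, 1 per gene, for 2 of the 8793 genes named on the array. *spt* is a mutation in tbx16, a T-box transcription factor. Wild-type embryos were compared with embryos homozygous for the *spt* b104 allele. At 4/5 somites the samples were intermediate mesoderm (IM): GFP-positive cells of embryos with a pax2a promoter-GFP transgene, sorted from dissociated trunk and posterior tissue of a small pool of embryos, with the RNA amplified over repeated rounds before hybridisation (2 wild-type and 3 *spt* arrays). At 21 somites they were dissected tails, holding somites and presomitic mesoderm behind the yolk extension, neither sorted nor amplified, from embryos not selected for the transgene (3 wild-type and 3 *spt* arrays). The hindmost tail tip was cut away from wild-type embryos, and the ball of abnormal cells found there from *spt* embryos. By the study's own description the tails also held intermediate mesoderm, notochord and spinal cord. The study compared the genotypes at each stage to ask whether tbx16 regulates major signaling pathways in these tissues. It also searched for individual genes downstream of tbx16.

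Myosin heavy chain cannot fold its motor domain unaided. Hsp90aa1.1, the Hsp90 that zebrafish make mainly in developing skeletal muscle, is a general ATP-driven chaperone, and Unc45b is the adaptor that binds Hsp90 through its TPR repeats and myosin through its UCS domain. Zebrafish embryos lacking either protein are paralysed because thick filaments do not assemble. Both genes were picked out by the study from the 21-somite arrays, only in its analysis without an expression filter. Their values at 21 somites are therefore given below as a description, without a test. The study also followed both transcripts by in situ hybridization at 21 somites and reported lower paraxial mesoderm expression in *spt*. The 4/5-somite arrays did not enter that choice and are tested.

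Across the series, 15502 probe sets that are not controls were fitted. A deposited signal of at least 100 was reached by 67.6 to 71.1% of them on the 4/5-somite arrays and by 80.8 to 84.8% on the 21-somite arrays. Arrays of the same genotype were no more alike than arrays of different genotype at 4/5 somites (Pearson r across probe sets 0.864 to 0.896 within and 0.840 to 0.903 between genotypes), whereas at 21 somites r was 0.958 to 0.990 within and 0.945 to 0.980 between genotypes. The array totals carry no read depth, and the number of arrays limits the precision. Of the 7 measured IM and pronephros genes, 5 had a higher mean in wild-type IM than in wild-type tails, among them pax2a (268 against 120) and hnf1bb (5475 against 44.5), whereas lhx1b (114 against 174) and wt1a (75.4 against 150) were lower in the IM, with each stage normalized on its own. The muscle actin gene acta1a averaged 5950 in wild-type and 2797 in *spt* tails but only 87.4 and 78.5 in IM. Blood and neural markers also differed between the sorted IM samples, with none called. Blood is not foreign to this tissue, since the study describes the IM as where the first red blood cells arise. The blood list (7 genes lower in *spt*, 1 higher) summed to 14430 to 15538 in wild-type and 987 to 1692 in *spt* IM. The wild-type sums leave out the array that the study set aside, on which it reports far lower red blood cell markers. The size of the blood difference therefore depends on which wild-type arrays were kept. The neural list (7 lower, 3 higher) summed to 6970 to 8186 and 4770 to 6416. The part of these differences in the 4/5-somite chaperone values was not tested.

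In the 21-somite tail hsp90aa1.1 was strongly detected in both genotypes. Its normalized signal, on a linear scale, was 4326, 4173 and 4702 in the wild-type tails and 2211, 2034 and 1662 in the *spt* tails. All 3 mutant arrays lay below all 3 wild-type arrays, and the lowest wild-type value was 1.89 times the highest *spt* value. The mean was 4400 ± 272 in wild type and 1969 ± 280 in *spt* (SD, n = 3 each), so that *spt* tails had 44.7% of the wild-type signal. The log2 fold change was -1.16 (SE 0.12), or 2.24-fold lower in *spt*.

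unc45b had the same form of difference. Its signal was 2450, 2580 and 2156 in the wild-type tails and 991, 1136 and 837 in the *spt* tails. Again the genotypes did not overlap, with a lowest wild-type value 1.90 times the highest *spt* value. The means were 2395 ± 218 and 988 ± 149 (SD, n = 3 each), the mutant at 41.2% of wild type. The log2 fold change was -1.27 (SE 0.15), or 2.41-fold lower in *spt*. These are bulk tissues, in which fewer muscle cells and less chaperone RNA per muscle cell cannot be told apart.

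The 21-somite contrast chose both genes, so no support is read from their order in it. Ordered by log2 fold change from the most reduced in *spt*, unc45b stood at place 53 and hsp90aa1.1 at place 66 of 15502. For comparison, 961 probe sets (6.2%) had all *spt* tails below all wild-type tails, and 79 probe sets (0.51%) were called lower in *spt* by limma at an adjusted p under 0.05.

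**Figure D1:**
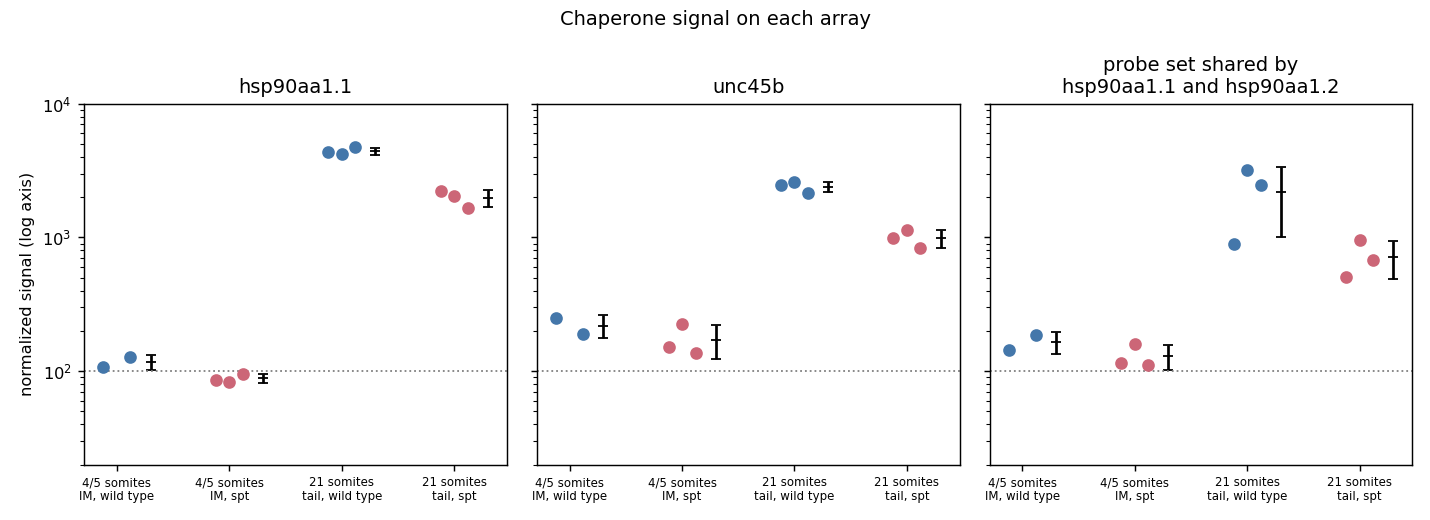
Normalized signal (log axis) of hsp90aa1.1, unc45b and the probe set that matches both hsp90aa1.1 and hsp90aa1.2 on each of the 11 arrays, grouped by stage, tissue and genotype; points are arrays, black bars are mean ± SD, and the dotted line marks a signal of 100. Each stage was normalized on its own. In the tails the *spt* arrays of hsp90aa1.1 (1662 to 2211) and of unc45b (837 to 1136) lie below every wild-type array, whereas the shared probe set has 1 low wild-type array at 896.

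In the IM at 4/5 somites both chaperone genes were dim. hsp90aa1.1 gave 107 and 128 in wild type and 85.3, 83.3 and 95.7 in *spt*. The 3 *spt* values were below both wild-type values, as they were for 14.5% of all probe sets, but only 2 of the 5 arrays reached a deposited signal of 100. The means were 118 ± 15.4 (SD, n = 2) and 88.1 ± 6.67 (SD, n = 3). The log2 fold change was -0.36 (SE 0.15, 95% interval -0.73 to 0.01), and it was not called (limma adjusted p = 0.688).

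unc45b was somewhat brighter and passed 100 on all 5 arrays. It gave 249 and 189 in wild-type IM and 152, 227 and 136 in *spt* IM. Here the genotypes overlapped. The means were 219 ± 42.6 (SD, n = 2) and 172 ± 48.5 (SD, n = 3), with a log2 fold change of -0.35 (SE 0.29, 95% interval -1.08 to 0.39, limma adjusted p = 0.733).

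No probe set was called at 4/5 somites (0 of 15502, or 0%), with 1116 (7.2%) at an unadjusted p under 0.05. The intervals for both chaperones include 0. For unc45b the lower end allows a reduction nearly as large as the tail value, and for hsp90aa1.1 it does not reach it, although a dim probe set compresses fold changes. The change in the tail minus the change in the IM was -0.80 (log2, SE 0.30) for hsp90aa1.1 and -0.93 (SE 0.36) for unc45b. These differences are given without a test, since the tail change chose the genes.

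Both transcripts were higher in the tail than in the IM within each genotype. After all 11 arrays were normalized together, wild-type tails exceeded wild-type IM by 4.85 (log2, SE 0.22) for hsp90aa1.1, or 28.8-fold, and by 3.05 (SE 0.27) for unc45b, or 8.30-fold. In *spt* the difference was 1.85 (SE 0.25) for unc45b, or 3.60-fold. For hsp90aa1.1 it was 4.00 (SE 0.19), but all 3 *spt* IM arrays were below a deposited signal of 100, so this value depends on dim signals and no fold is given. From lowest to highest, the order of the levels was *spt* IM, wild-type IM, *spt* tail and wild-type tail for both genes. For unc45b the first pair in that order overlapped between arrays, and every other pair of neighbours was separated for both genes. With each stage normalized on its own, 6.2% of all probe sets were separated in this direction between the tails and 14.5% in the IM. The share for wild-type IM below *spt* tails is not given here. The genes were picked on the tail arrays, so no support is read from this order or from tail minus IM. Stage, tissue, cell sorting and RNA amplification all change between the IM and the tail samples and cannot be told apart in this step.

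The chaperones kept much the same ratio to each other across genotypes but not across stages. Dividing the hsp90aa1.1 signal by the unc45b signal on the same array gave 1.85 ± 0.292 in wild-type and 2.0 ± 0.221 in *spt* tails (SD, n = 3 each). In the IM the ratio was 0.554 ± 0.178 in wild type (SD, n = 2) and 0.544 ± 0.169 in *spt* (SD, n = 3). The ratio of probe signals is no ratio of transcript numbers, since each probe set has its own brightness, and at most its differences between samples can be read. In the IM all 3 *spt* arrays of hsp90aa1.1 were below a deposited signal of 100, so the difference between stages depends on dim signals. Both genes were chosen for a fall in the tail, so no support is read from their like ratios there.

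hsp90aa1.1 has a close copy, hsp90aa1.2, that lies next to it on chromosome 20, and the array annotation gives 1 probe set to both genes. Its signal was 896, 3213 and 2475 in wild-type tails and 509, 957 and 676 in *spt* tails. The wild-type replicate 1 array lay below the highest *spt* array, so the genotypes overlapped. The log2 fold change was -1.46 (SE 0.43) and was not called (limma adjusted p = 0.304). Without wild-type replicate 1 it became -2.0, and over the 6 fits that each left out 1 array its weakest value was -1.09. Wild-type replicate 1 is the array that went against the difference. The probe set also matches hsp90aa1.1, which the study chose on this contrast, so no support is read from these fits. On wild-type replicate 1 the hsp90aa1.1 probe set itself (4326) lay between the other wild-type arrays.

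The other Hsp90 genes had values that were not reduced. hsp90aa1.2, the neighbouring copy, averaged 847 ± 108 in wild-type and 1074 ± 279 in *spt* tails on its brighter probe set (log2 fold change 0.31, SE 0.21), and its other probe set gave 0.18 (SE 0.20). hsp90ab1, the constitutive cytosolic Hsp90, was the brightest at 8258 ± 649 and 8556 ± 823 (0.05, SE 0.09), and its sign turned to -0.01 without wild-type replicate 3 or without *spt* replicate 4. hsp90b1, which acts in the endoplasmic reticulum, gave 0.39 (SE 0.24). The mitochondrial trap1 gave 0.14 (SE 0.23), which turned to -0.13 without wild-type replicate 2. None of these 4 genes was called at either stage. In the IM hsp90aa1.2 scattered widely, at 48.3 and 970 in wild type and 461, 52.6 and 35.1 in *spt*, so that no direction can be read there.

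**Figure D2:**
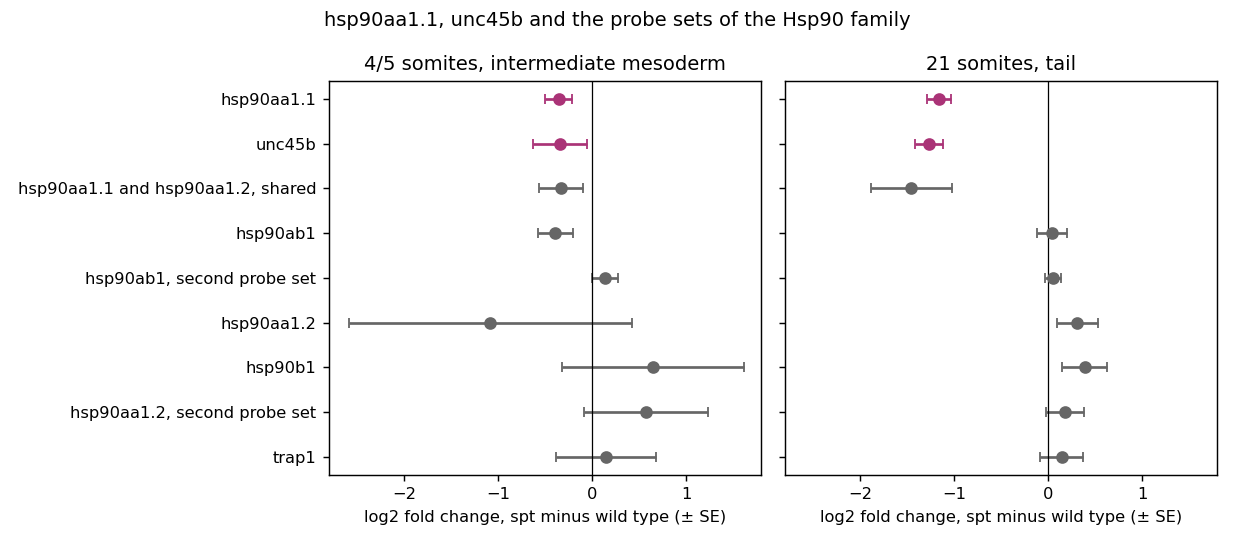
Log2 fold change, *spt* minus wild type, with its SE, for hsp90aa1.1 and unc45b (purple) and every probe set of the Hsp90 family (grey), in IM at 4/5 somites (left) and in tails at 21 somites (right). In the tail hsp90aa1.1 (-1.16), unc45b (-1.27) and the shared probe set (-1.46) lie to the left, and the remaining Hsp90 probe sets lie between 0.03 and 0.39.

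Other folding machinery had no calls, which is close to the small share of all probe sets that were called. Of 17 Hsp90 cochaperones measured, 0 were called lower and 0 higher in the tail, against 0.69% of all probe sets called in either direction. Their log2 fold changes ran from -0.32 for ahsa1a, an activator of the Hsp90 ATPase, to 0.09 for cdc37, which brings kinases to Hsp90. fkbp4, an immunophilin that docks on Hsp90, gave -0.12 (SE 0.20), and ptges3a, the p23 cochaperone that stabilises closed Hsp90, gave 0.01 (SE 0.13). The median was -0.05, beside 0.00 over all probe sets.

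Of 29 Hsp70, Hsp40 and small heat shock genes, none was called either (0.69% of all probe sets), with a median of -0.09. The values furthest from 0 were dnajb6b, an Hsp40 found at the sarcomere Z-disc in mammals, at -0.53 (SE 0.15, limma adjusted p = 0.252), and hsbp1a, which binds heat shock factor, at 0.59 (SE 0.15, adjusted p = 0.219). hspb1, a small heat shock protein abundant in muscle, averaged 2324 in wild type and 1712 in *spt* tails (-0.43, SE 0.14, adjusted p = 0.384). The constitutive Hsp70 gene hspa8 averaged 10033 and 10633 (0.08, SE 0.05).

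The chaperonin CCT and prefoldin, which fold actin and tubulin, had 15 measured genes with no call (0.69% of all probe sets) and a median near 0 (-0.003). Together the 65 measured chaperone genes had 36 lower and 29 higher values in *spt* tails, no call in either direction and a median of -0.05. With 0.69% of all probe sets called, the absence of calls is not read as a result about these genes. At an unadjusted p under 0.05, 5 were lower and 1 was higher, beside 7.44% of all probe sets in either direction. In the IM the same 65 genes had 35 lower and 30 higher values and no call. Of the genes listed as relatives or possible partners of Unc45b (unc45a, smyd1a, smyd1b, apobec2a and apobec2b), 0 of 5 had a probe set under their own symbol.

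Myosin heavy chains of muscle, the clients of the chaperones, were thinly measured, with 3 of 17 listed genes having a probe set of their own. smyhc1, the slow myosin heavy chain, was the bright one, with 1929, 3177 and 2391 in wild-type tails and 809, 955 and 414 in *spt* tails. It fell by 1.81 on the log2 scale (SE 0.30, limma adjusted p = 0.035), but the call was lost without the variance trend (adjusted p = 0.051), without wild-type replicate 2 and without wild-type replicate 3 (adjusted p up to 0.163). The other muscle chains, myh7 and myhz1.3, were dim and not called. A probe set shared by 6 fast myosin symbols, chosen after its values were seen, gave 176, 158 and 175 in wild-type and 110, 80.9 and 70.21 in *spt* tails (log2 fold change -0.86, SE 0.17, adjusted p = 0.069). It was no brighter in tails than in IM (tail minus IM -0.69 in wild type and -1.72 in *spt*, log2). Only 4 of its 6 tail arrays reached a deposited signal of 100, so it is a doubtful measure of fast myosin. Among nonmuscle chains myh9a gave 0.26 and myh10 gave 0.30, neither called.

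Among 11 myosin light chain and myosin-binding genes, 2 were called lower in *spt* tails and 0 higher, against 0.51% and 0.181% of all probe sets, and 9 had values below 0. The log2 fold change was -1.89 (SE 0.19, limma adjusted p = 0.003) for mybphb, a thick filament-binding protein, and -2.11 (SE 0.26, adjusted p = 0.006) for myl10, a regulatory light chain. By contrast mylpfa, the fast regulatory light chain, averaged 349 and 356 (0.12, SE 0.43). Of 27 other sarcomere genes, 23 had values below 0 and 4 above, and 7 were called lower (0.51% of all probe sets) and 0 higher. Those called were tropomyosin tpma (-1.39), the thin filament ruler neb (-1.73), the troponins tnni2b.1 (-1.84) and tnnt2c (-2.18), the actins actc1a (-0.82) and acta1a (-1.11), and the Z-disc crosslinker actn3b (-1.29).

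Taking these 41 myosin and sarcomere genes as a group, 10 were called lower and 0 higher in *spt* tails (0.51% and 0.181% of all probe sets), and 34 had a value below 0, with a median of -0.29. The called genes fell by 1.77- to 4.53-fold. Both chaperones lie in that range, but it holds only called genes and the contrast chose the chaperones, so no support is read from this. The count of 10 depended on single arrays: it was 2 without wild-type replicate 2, 5 without wild-type replicate 3 and 6 without *spt* replicate 6. The 2 calls left without wild-type replicate 2 were mybphb and tpma. The actins acta1a and actc1a and the crosslinker actn3b lost their calls in each of these 3 fits. Leaving out wild-type replicate 2 also ended the calls of myl10, neb, tnni2b.1 and tnnt2c, whose adjusted p rose to at most 0.057, 0.054, 0.099 and 0.077 over the fits that each left out 1 array. Leaving out wild-type replicate 3 also ended the call of tnni2b.1, and leaving out *spt* replicate 6 that of tnnt2c. In the IM none of the 41 was called, 25 had lower and 16 higher values, and the median was -0.06. Some of these muscle genes were also reported by the study from these arrays, so that their direction is not independent evidence.

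Of 12 myogenic regulators, 4 were called lower in the tail (0.51% of all probe sets), and 9 had values below 0. myog, which drives muscle differentiation, was 1111, 1159 and 1490 in wild type and 364, 320 and 222 in *spt* (-2.01, SE 0.21, limma adjusted p = 0.003). The genotypes were well separated. mef2d (-1.14, adjusted p = 0.013) and mef2ca (-0.83, adjusted p = 0.043), which switch on sarcomere genes, fell less, as did myod1, the muscle determination factor (-1.01, adjusted p = 0.031). Leaving out 1 array ended the call of mef2ca in all 6 such fits (adjusted p up to 0.315), that of myod1 in all but the fit without wild-type replicate 3 (up to 0.192) and that of mef2d without *spt* replicate 5 or 6 (up to 0.067).

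**Figure D3:**
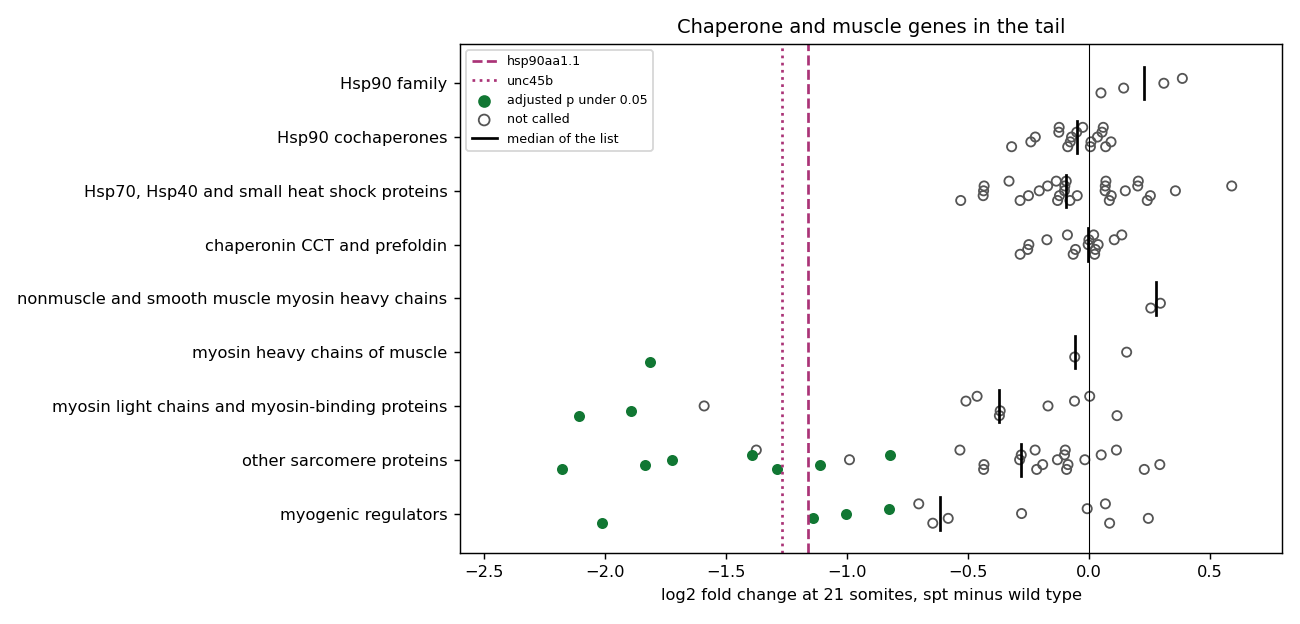
Log2 fold change in the 21-somite tail, *spt* minus wild type, for every measured gene of 9 lists (1 point per gene, its brightest probe set; filled points have a limma adjusted p under 0.05; vertical bars are list medians). The purple lines mark hsp90aa1.1 (-1.16) and unc45b (-1.27). The lowest value of the 65 other chaperone genes is -0.53. Both lines fall within the range of the called muscle genes, which holds only genes that passed the threshold. The contrast shown chose both chaperones, so no support is read from their place among the lists.

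The summed signal of the 41 myosin and sarcomere genes was 46395 ± 6186 in wild-type and 25378 ± 2143 in *spt* tails (SD, n = 3 each), the mutant at 54.7% of wild type. Set against that sum on the same array, hsp90aa1.1 had 95.8 ± 11.6 signal units per 1000 in wild type and 77.6 ± 9.10 in *spt*. The arrays gave 109, 87.6 and 90.6 against 88.0, 73.6 and 71.1, so the genotypes touched. unc45b had 52.5 ± 10.2 per 1000 in wild type and 38.8 ± 2.69 in *spt*, at 61.7, 54.2 and 41.5 against 39.4, 41.1 and 35.8. Relative to summed muscle signal the *spt* values were therefore 81.0% of wild type for hsp90aa1.1 and 73.9% for unc45b. The same sum was 12536 ± 637 in wild-type IM (SD, n = 2) and 10608 ± 1194 in *spt* IM (SD, n = 3), with each stage normalized on its own. The sum is thus not specific to muscle, and the percentages do not show a fall of the chaperones beyond that of muscle. The sum also weights genes by probe brightness, and how far lower muscle content accounts for the chaperone values was not tested.

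**Figure D4:**
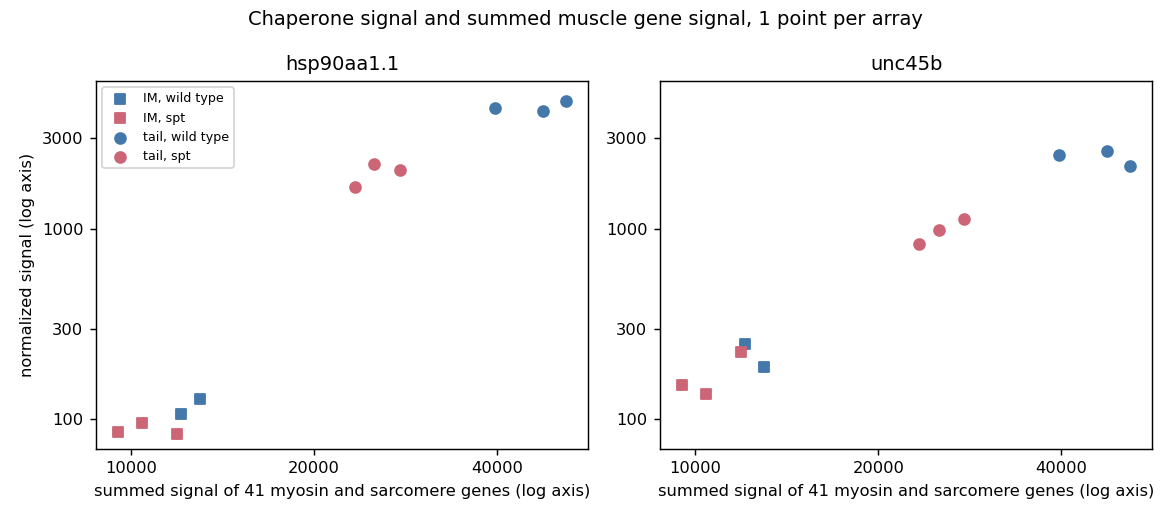
Normalized signal of hsp90aa1.1 (left) and unc45b (right) against the summed signal of 41 myosin and sarcomere genes on the same array (both axes logarithmic; squares, IM at 4/5 somites; circles, tail at 21 somites; blue, wild type; red, *spt*). The *spt* tails lie between the IM arrays and the wild-type tails on both axes.

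Markers of other cells in the tail mostly had higher values in *spt*, with 1 call outside the blood list. All 10 measured neural genes had higher values in *spt*, with none called, and their summed signal was 9390 to 10794 in wild-type and 13668 to 14439 in *spt* tails. For the notochord 7 of 8 values were higher (6930 to 8748 against 8631 to 9808), and for the epidermis 6 of 6 (15660 to 20298 against 18943 to 25681). Of 7 IM and pronephros genes 1 was called higher (0.181% of all probe sets), the kidney cadherin cdh17 at 1.90. The sums were 1169 to 1329 in wild type and 2016 to 2393 in *spt*. Of 8 blood genes 7 were called lower, against 0.51% of all probe sets. They ran from the globins hbae3 at -4.39 and hbbe3 at -4.37 to hbbe2 at -1.27 and alas2 at -1.20, with tal1 at -0.26 not called. The blood list summed to between 9171 and 14223 in wild type and between 1496 and 1688 in *spt*. Both measured endothelial genes had higher values in *spt*. A list of dissociation and stress genes had 8 of 11 higher values, with sums of 7842 to 7942 against 8386 to 9174 and no call. In the IM this stress sum was 6250 to 8700 in wild type and 8517 to 11070 in *spt*. No marker was listed at 0. The part of these shifts in the chaperone values was not tested.

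Genes whose signal followed each chaperone most closely were ranked by Pearson r over 9772 candidate probe sets, as a description. Over all 11 arrays the 8 closest to hsp90aa1.1 were acta1a (r = 0.995), apoc1, actc1a, fstl1b, ccdc120b, rbfox2, myf5 and vaspb (0.987). Those closest to unc45b were klhl41b (0.985), flncb, tcf15, ttn.2, tpma, smyhc1, mespaa and mef2d (0.972). As background, acta1a and actc1a encode muscle actins, ttn.2 titin, flncb a filamin and klhl41b a sarcomere-stabilising Kelch protein, while myf5, tcf15 and mespaa are factors of early somite or muscle cells. The list for hsp90aa1.1 also holds apoc1, fstl1b, ccdc120b, rbfox2 and vaspb, and it is not read as a list of muscle genes. In all, 363 probe sets had r over 0.95 with hsp90aa1.1 and 36 with unc45b. Much of such an r comes from the step between IM and tail, which these points share along with amplification and stage.

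Over the 6 tail arrays alone the step is that between genotypes. The genes closest to hsp90aa1.1 were then mef2d (r = 0.999), myog, tpma, rnd3a, chrna1, cpn1, rcan3 and zgc:162611 (0.994). chrna1 encodes the muscle acetylcholine receptor subunit. Those closest to unc45b were nob1 (0.996), aldh1a2, xirp1, pald1a, cacng1a, tjp2b, myod1 and ndufaf1 (0.989). aldh1a2 makes retinoic acid, xirp1 is an actin-binding protein of muscle junctions and cacng1a is a subunit of the muscle calcium channel. The list for unc45b also holds nob1, pald1a, tjp2b and ndufaf1, and it is not read as a list of muscle genes. The name of the nob1 probe set marks it as one that may cross-hybridise. A high r does not need a large change, since zgc:162611 and ndufaf1 each differed between genotypes by only -0.14.

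Between the chaperones r was 0.958 over 11 arrays and 0.969 over the tails. The closest genes were taken as those with the highest r of all candidates, so their higher r follows from that choice. Both r values include the step between genotypes in the tail that chose both chaperones, so no support is read from them. Over 11 arrays unc45b came 250th in the order for hsp90aa1.1, and hsp90aa1.1 came 23rd in the order for unc45b. Over the tails these places were 57 and 36. In the tails hsp90aa1.1 was highest on wild-type replicate 3 and unc45b on wild-type replicate 2, and both were lowest on *spt* replicate 6.

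**Figure D5:**
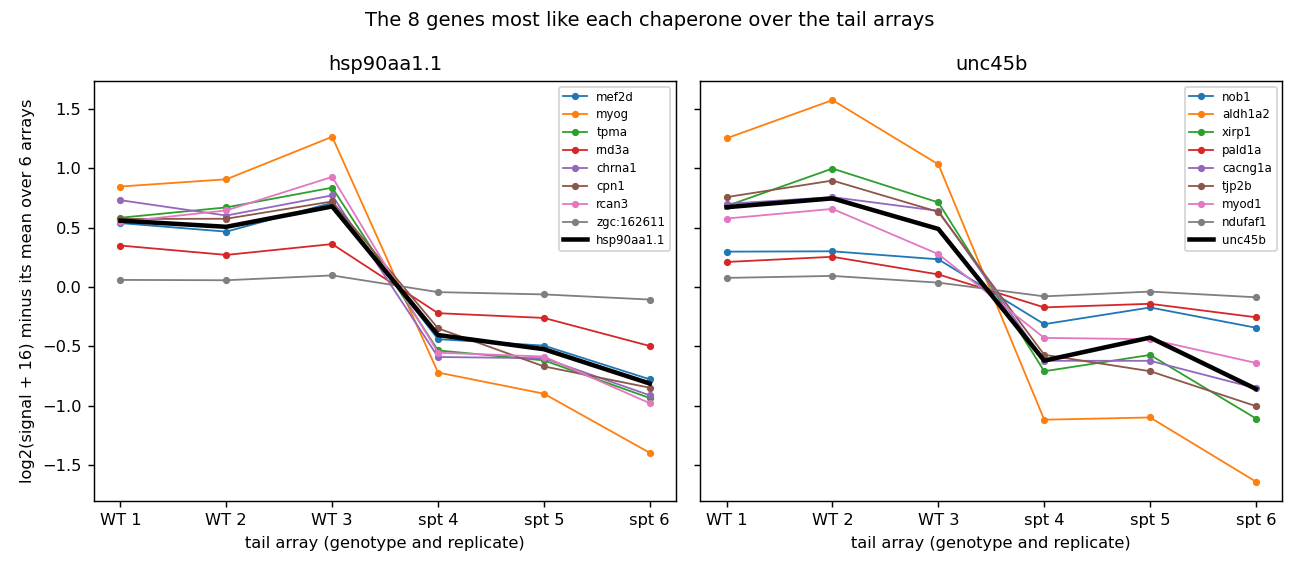
Log2(signal + 16) minus its mean over the 6 tail arrays for hsp90aa1.1 (left, black) and unc45b (right, black) with the 8 genes whose signal was most like each. All lines step down from the wild-type to the *spt* arrays, with log2 fold changes from -2.57 for aldh1a2 to -0.14 for zgc:162611 and ndufaf1.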

How the data were processed

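Signals were measured on 11 Affymetrix Zebrafish Genome Arrays, 1 per sample. Per the labels, the authors computed the deposited intensity values with MAS5 (version 5.0). The scaling target is not given in the sources used here. One wild-type 4/5-somite array was set aside by the study and is not used here. Probe sets were named from the platform annotation (10795 with 1 symbol, 135 with several, 4572 with none), and 115 control probe sets were left out. Signals were quantile normalized within each stage (all 11 arrays together for tail minus IM), transformed as log2(signal + 16) and fitted with limma 3.58.1 in R 4.3.3 (variance trend, Benjamini-Hochberg adjustment over 15502 probe sets, threshold 0.05). A gene with several probe sets was represented by the brightest. Up to 4 called genes per list and direction were named by smallest p, and the 8 genes most like each chaperone by r. Other genes were named after their values were seen. Per the methods, repeat extractions came from separate clutches, and whether wild-type and *spt* samples shared a clutch is not given in the sources used here. Members and lists were chosen with earlier results of these data known. In simulated data a log2 change of 1 was recovered for 56% of planted probe sets at 21 somites and for 0% at 4/5 somites, and a log2 change of 4 for 100% and 62%. Changes were planted only in probe sets above the median level, so these rates need not hold for dim ones such as hsp90aa1.1 in the IM. Alternatives were the deposited signals, pseudocounts of 1 and 64, a signal minimum of 100, no variance trend, joint normalization, every probe set, a replicate block and leaving out each array. No promoter or protein sequence was used here.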

Additional observations from a re-analysis of the deposited data

Results flagged for a closer look

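For 4 genes beside the chaperones the change in the tail differed from the change in the IM by limma's interaction term over all 11 arrays (tail minus IM, log2). Only named list genes already called in the tail were looked at, and the tail change is part of this difference. The adjusted p values do not allow for that choice, so no support is read from them. The share of all probe sets that passed this test is not given here. The difference was -2.12 (SE 0.32, adjusted p = 0.022) for myog and -1.97 (SE 0.29, adjusted p = 0.020) for neb, both called lower in the tail and not called in the IM. In the IM neb reached a signal of 100 on 0 of 5 arrays and myog lay between 99.8 and 121, so a reduction there could hardly have been measured. It was -1.98 (SE 0.21, adjusted p = 0.003) for the carbonic anhydrase gene cahz, also dim in the IM (means of 103 and 83.9), and 1.64 (SE 0.30, adjusted p = 0.045) for the blood regulator gata1a, whose change was -2.40 in the tail and -4.04 in the IM. gata1a averaged 366 in wild-type and only 55.9 in *spt* tails, beside 2709 and 151 in the IM. A fall in the tail as large as that in the IM could hardly have been measured. The IM values also leave out the wild-type array that the study set aside. The study names gata1 among the red blood cell markers that were far lower on it. The IM change of gata1a and its difference from the tail therefore depend on which arrays were kept. Stage, tissue, sorting and amplification cannot be told apart in these differences.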

How the results depend on the processing

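In every alternative run, hsp90aa1.1 and unc45b kept values below 0 at both stages, neither passed the 4/5-somite test, and the 65 chaperone genes had no call. hsp90aa1.1 could not be fitted at 4/5 somites with a signal minimum of 100. Normalizing all 11 arrays together moved unc45b to -1.57 at 21 somites and its change between stages to -1.20, and gave 4 probe sets called lower at 4/5 somites; dropping the variance trend gave 1. For tail minus IM, the deposited signals gave 5.02 (wild type) and 4.27 (*spt*) for hsp90aa1.1, and 3.32 and 2.48 for unc45b. A pseudocount of 64 gave 4.51 and 3.59 for hsp90aa1.1, and a pseudocount of 1 gave 4.17 in *spt*.

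Leaving out 1 array at a time gave -1.26 to -1.04 for hsp90aa1.1 and -1.37 to -1.16 for unc45b at 21 somites, and -0.47 to -0.24 and -0.55 to -0.16 at 4/5 somites. Tail minus IM for hsp90aa1.1 ran from 4.66 to 4.93 in wild type and from 3.92 to 4.19 in *spt*. Probe sets called lower at 21 somites ran from 44 (without *spt* replicate 5) to 74, those called higher from 12 (without *spt* replicate 5) to 29, and called myosin and sarcomere genes from 2 (without wild-type replicate 2) to 10. hsp90ab1 ran from -0.014 (without *spt* replicate 4; -0.011 without wild-type replicate 3) to 0.125, and trap1 from -0.135 (without wild-type replicate 2) to 0.299.

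No paired analysis was run, because the sources used here do not say which wild-type and *spt* arrays belong together. The replicate numbers run serially over the arrays of a stage and are not clutch labels. With a block on genotype and this number across stages, tail minus IM was 4.8 and 4.12 for hsp90aa1.1 and 3.14 and 1.92 for unc45b (wild type and *spt*). That block joins arrays of different embryos that only share a number. Its values are a description without a test, and no support is read from them. Signals near 100 limit what can be read of hsp90aa1.1 in the IM.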
